A study of Mus musculus with 6 samples.

Results

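The BCL2 family of cell death regulators was followed in RNA from 6 subcutaneous H22 tumours. The genes are 10 of its members, taken by symbol from the deposited table of 20482 genes: the anti-apoptotic Bcl2, Bcl2l1 and Mcl1, and the pro-apoptotic Bax, Bak1, Bid, Bad, Bbc3, Pmaip1 and Bcl2l11. All 10 were listed, and all 10 passed the filter on low counts, which left 14392 genes for testing. H22 is a mouse hepatocellular carcinoma line, implanted here under the skin of the right flank of male C57BL/6 mice 6 weeks of age, with a genotype labelled WT in every sample. Lenvatinib is an inhibitor of several receptor tyrosine kinases, among them those for vascular and fibroblast growth factors. The 3 resistant tumours (H22-LR) came from mice that received 100 mg/kg of it per day by intraperitoneal injection, 2 times a week, through 2 cycles. The 3 sensitive tumours (H22-NR) came from control mice. For these the protocol names both lenvatinib and the solvent, PBS with DMSO, and the treatment label of all 6 samples reads as untreated, so groups follow the sample titles. Exposure to the drug and resistance to it cannot be told apart in this design, and all tumours derive from a single cell line in a living host.

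Proteins of this family decide whether the outer mitochondrial membrane is kept intact or is opened. BCL2, BCL-XL (the product of Bcl2l1) and MCL1 hold the effectors BAX and BAK in check, whereas BH3-only proteins, which share with them a single short helix, either block these guardians or activate the effectors directly. Once BAX and BAK open the membrane, cytochrome c reaches the cytosol and the caspases are switched on. In hepatocytes BCL-XL and MCL1 are the main guardians, and BIM (Bcl2l11) and BAD are BH3-only proteins held down by kinase signalling downstream of growth factor receptors.

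Total counts ran from 15995403 to 17545098 per tumour, so 3 counts equal 0.171 to 0.186 CPM (reads of a gene relative to the TMM-scaled library size). Every member had at least 70 counts in every tumour. Sensitive tumour 2 stood apart from the other 5: its 12 T cell markers summed to 583.0 CPM against 12.1 to 58.8 CPM elsewhere, and its 9 B and plasma cell markers to 2512 CPM against 1.25 to 17.2 CPM. Sensitive tumour 1 held the most RNA of 9 skeletal muscle markers, 1377 CPM, with 271.3 CPM or less in the others. Of the hepatocyte and hepatoma markers, Alb (112.1 to 198.0 CPM), Afp (11.5 to 22.8 CPM), Krt8 and Krt18 were present in all tumours, while Hnf4a did not exceed 2.68 CPM. Fold changes of the members are given with and without sensitive tumour 2.

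No member passed an adjusted p of 0.05 in edgeR's quasi-likelihood test, and neither did any other of the 14392 genes (percent called 0). DESeq2 called 117 genes, none of them a member. At an unadjusted p under 0.05 there were 3 members of 10, Bcl2 on the lower side and Bax and Bad on the higher side in resistant tumours, where 9.76% of all tested genes reached that level. Those 3 are also the members in which the groups did not overlap, against 16.0% of all tested genes (8.41% with the resistant group higher and 7.54% with it lower). All 3 anti-apoptotic members had a negative log2 fold change (median -0.19) and 4 of 7 pro-apoptotic members a positive one (median 0.26), while over all tested genes the median was -0.02 and 47.3% were positive. Without sensitive tumour 2 only Bcl2 of the 3 anti-apoptotic members was still lower (median 0.05), and 5 of the 7 pro-apoptotic members were higher (median 0.27). The members at an unadjusted p under 0.05 were then Bcl2 and Bak1, where 6.37% of all tested genes reached that level. Without resistant tumour 1, 2 or 3 there were 0 such members, against 4.22%, 6.2% and 5.59% of all tested genes. Without sensitive tumour 1 there was 1 (Bcl2), against 7.66%, and without sensitive tumour 3 there were 3, against 17.8%. The share over all genes thus moved with the tumour left out as well.

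**Figure D1:**
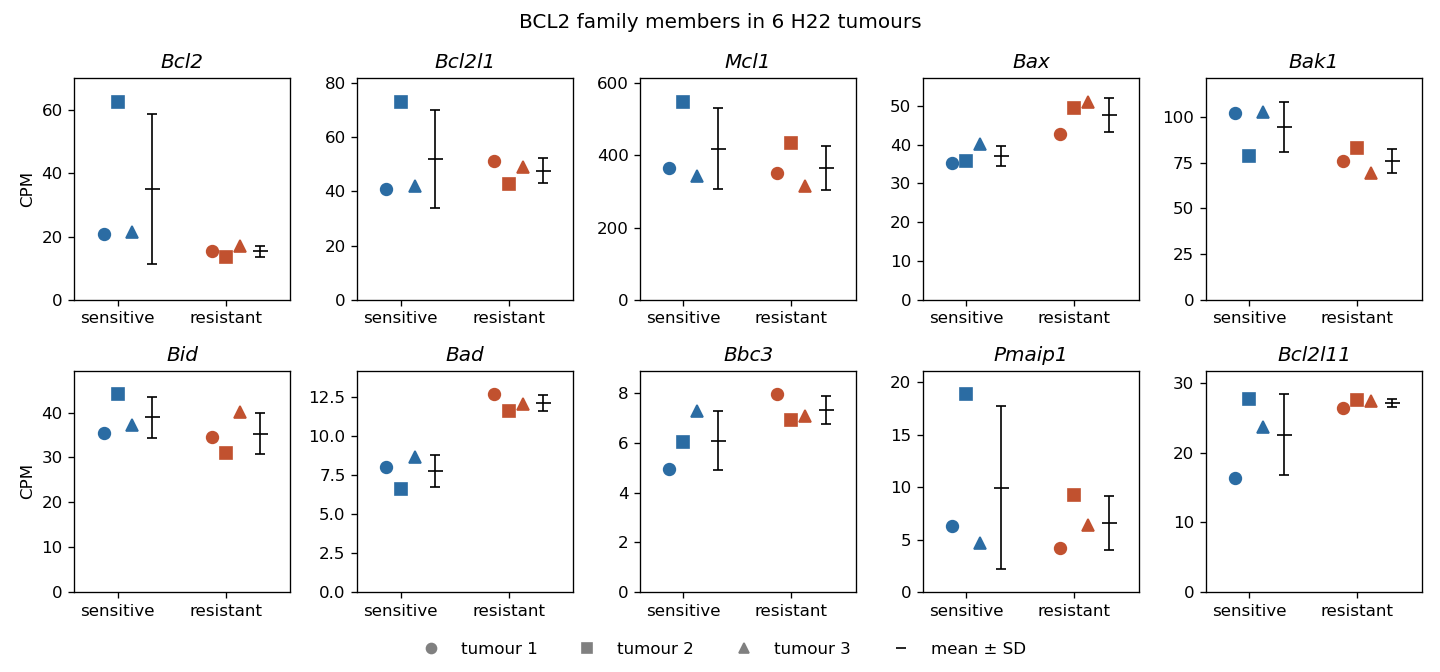
CPM (vertical axes, each from 0) of the 10 members in 3 sensitive (blue) and 3 resistant (red) tumours, with a symbol per tumour number and the mean ± SD beside each group. Bax and Bad are higher in all resistant tumours and Bcl2 is lower, while sensitive tumour 2 is the highest of the 6 for Bcl2, Bcl2l1, Mcl1, Bid, Pmaip1 and Bcl2l11.

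The upstream sequences of these 3 genes are shown because they are the members whose groups did not overlap. They come from RefSeq on GRCm38.p6, cover the 250 bases before the start site, and read 5′ to 3′ on the gene's own strand. Capitals mark matches, on either strand, to any of 6 motifs: the E-box CACGTG, the GC box GGGCGG, the CCAAT box CCAAT, the TATA box TATAAA, the cAMP response element TGACGTCA and the forkhead site GTAAACA.
Bcl2, chr1:106714291-106714540, minus strand: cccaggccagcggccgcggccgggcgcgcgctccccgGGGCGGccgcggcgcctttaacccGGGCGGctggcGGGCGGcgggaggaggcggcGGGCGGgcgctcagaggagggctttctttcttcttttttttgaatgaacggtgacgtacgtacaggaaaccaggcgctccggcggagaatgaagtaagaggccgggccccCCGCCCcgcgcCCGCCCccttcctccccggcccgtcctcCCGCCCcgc
Bax, chr7:45466899-45467148, minus strand: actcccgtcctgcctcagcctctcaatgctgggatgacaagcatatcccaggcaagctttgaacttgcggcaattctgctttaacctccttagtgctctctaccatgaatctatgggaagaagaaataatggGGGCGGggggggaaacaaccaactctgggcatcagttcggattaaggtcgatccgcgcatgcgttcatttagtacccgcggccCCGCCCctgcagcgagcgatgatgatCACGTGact
Bad, chr19:6941611-6941860, plus strand: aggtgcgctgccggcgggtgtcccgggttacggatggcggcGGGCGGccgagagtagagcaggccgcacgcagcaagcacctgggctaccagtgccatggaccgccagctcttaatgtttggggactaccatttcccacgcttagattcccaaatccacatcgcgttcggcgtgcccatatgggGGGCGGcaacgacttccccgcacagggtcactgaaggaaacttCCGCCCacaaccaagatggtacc

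Promoters of 9 of the 10 members were matched by symbol, with the window nearest to the GENCODE gene start taken where a gene had several. Not all 9 lie upstream of that start. All 250 bases of the Bak1 window lie in annotated untranslated regions, with its start site 382 bases from the GENCODE one. In the Bid window 29 bases lie in an untranslated region of Bid, and its start site is 29 bases from the GENCODE one. The Bbc3 start site is 1190 bases from the GENCODE one. A GC box lay in 7 of the 9, against 32.7% of 32851 mouse promoter windows of the same length. Bcl2 had 7 GC boxes in a window of 74.8% G and C, Bad had 3 and Bax 2. The E-box in the Bax window, capitals near its 3′ end, was the only one among the 9, and 6.02% of all windows hold one. A forkhead site and a CCAAT box were found in the Bcl2l11 window alone, against 3.17% and 33.8% of all windows. The TATA box and the cAMP response element, held by 12.4% and 1.55% of all windows, were in none of the 9. No matches to different motifs overlapped. These matches describe letters in the windows and nothing about which factors bind there.

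Among the 3 anti-apoptotic members, Bcl2 had the largest difference. Bcl2 (ENSMUSG00000057329, GRCm38 chromosome 1, 106538178 to 106714274, minus strand), founding member of the family and the guardian that lymphocytes rely on, stood at 20.95, 62.53 and 21.53 CPM in sensitive tumours 1 to 3 and at 15.4, 13.5 and 17.0 CPM in resistant tumours 1 to 3. The groups did not overlap, but 1 sensitive tumour lay far above the other 5. The log2 fold change was -1.19 ± 0.46 (SE), from 35.0 ± 23.8 to 15.3 ± 1.76 CPM (SD, n = 3 each; edgeR unadjusted p = 0.0362, adjusted p = 0.510). Without sensitive tumour 2 it was -0.47 ± 0.19 (edgeR unadjusted p = 0.0461, adjusted p = 0.759), a smaller difference in the same direction. T cell markers, of which 12 of 12 had a negative log2 fold change, ran from 37.0 to 583.0 summed CPM in sensitive and from 12.1 to 38.2 CPM in resistant tumours, with Cd3d at 0 in resistant tumour 2. B and plasma cell markers ran from 7.88 to 2512 CPM and from 1.25 to 6.33 CPM. Endothelial markers, 8 of 8 with a negative log2 fold change, ran from 261.7 to 595.2 CPM and from 185.5 to 286.2 CPM. Fat cell markers, also 8 of 8, ran from 888.2 to 3351 CPM and from 87.4 to 1427 CPM. Sensitive tumour 3 and resistant tumour 3, 1 tumour of each group, held like amounts of T cell RNA, 37.0 and 38.2 summed CPM. They held 21.5 and 17.0 CPM of Bcl2, 40.0 and 50.9 CPM of Bax, and 8.63 and 12.1 CPM of Bad. Their endothelial markers were also close, at 261.7 and 266.2 CPM. Their macrophage markers (761.5 and 1286 CPM) and fibroblast markers (1842 and 5415 CPM) were not. The part of these markers' cells in the differences of Bcl2, Bax and Bad was not tested. In bulk tumour RNA, fewer cells of a type and less RNA per cell cannot be told apart.

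**Figure D2:**
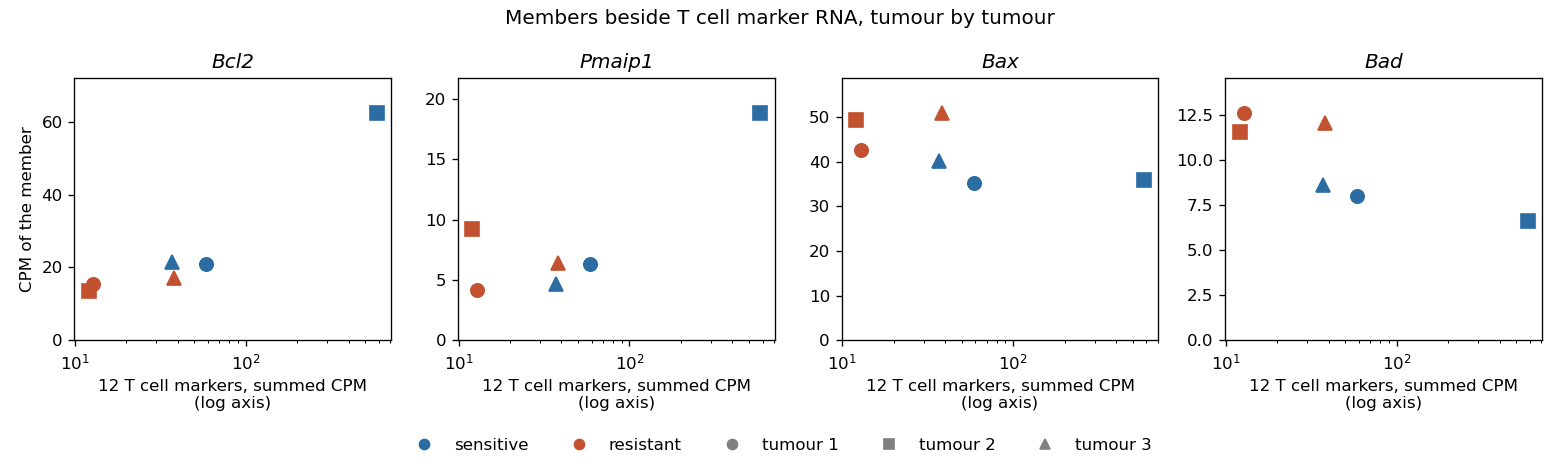
CPM of Bcl2, Pmaip1, Bax and Bad (vertical axes, from 0) against the summed CPM of 12 T cell markers (horizontal log axis) in each sensitive (blue) and resistant (red) tumour. Sensitive tumour 2, at 583.0 CPM of T cell markers, has the most Bcl2 and Pmaip1, and the least Bad of the 6.

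Bcl2l1 (ENSMUSG00000007659, chromosome 2, 152780668 to 152831728, minus strand), the gene of BCL-XL, stood at 41.1, 73.0 and 41.9 CPM in sensitive and at 51.3, 42.6 and 49.2 CPM in resistant tumours. Again sensitive tumour 2 was the highest, and the other sensitive tumours lay below all 3 resistant ones. Its log2 fold change was -0.12 ± 0.25 with all tumours (edgeR adjusted p = 0.865) and 0.20 ± 0.14 without sensitive tumour 2 (edgeR adjusted p = 0.803), so the direction turned with that tumour. Counts are per gene, so the long guardian form and the short pro-apoptotic splice form of this gene were not separated here.

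Mcl1 (ENSMUSG00000038612, chromosome 3, 95658788 to 95663176, plus strand), whose short-lived protein must be made continuously, was the member with the most RNA. It stood at 363.7, 547.5 and 344.2 CPM in sensitive and at 350.5, 432.9 and 314.5 CPM in resistant tumours, so the groups overlapped. The tumours numbered 2 were the highest of each group. The log2 fold change was -0.19 ± 0.23 (edgeR adjusted p = 0.748) and 0.05 ± 0.16 without sensitive tumour 2 (adjusted p = 0.957). Genes whose products set the stability of the MCL1 and BIM proteins lay close to 0 in all 6 cases tested, from -0.05 to 0.12 on the log2 fold scale, and from -0.10 to 0.17 without sensitive tumour 2. They include Huwe1, a ubiquitin ligase that marks MCL1 for degradation (0.04 ± 0.20, and -0.10 without that tumour), Btrc, part of a ligase for BIM (-0.05 ± 0.17), and Mapk3, the kinase ERK1 that phosphorylates BIM (0.12 ± 0.14).

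The 2 effectors stood on opposite sides. Bax (ENSMUSG00000003873, chromosome 7, 45461697 to 45466898, minus strand), which moves from the cytosol into the mitochondrial membrane, was measured at 35.2, 35.9 and 40.0 CPM in sensitive and at 42.6, 49.3 and 50.9 CPM in resistant tumours. Every resistant tumour lay above every sensitive one, though the gap between the groups was smaller than the range within either. The difference was 37.0 ± 2.62 against 47.6 ± 4.41 CPM, a log2 fold change of 0.36 ± 0.15 or 1.29-fold (edgeR unadjusted p = 0.0431, adjusted p = 0.510). Without sensitive tumour 2 the log2 fold change was 0.34 ± 0.15 (edgeR unadjusted p = 0.0653), about as large as with it. The gene model Gm45808 shares 12.2% of the exonic bases of Bax on the same strand and is not among the deposited genes. How reads of those shared bases were assigned is not known. Of the hepatocyte and hepatoma markers, 4 of 10 tested had a positive log2 fold change and 6 a negative one (median -0.23). Their summed CPM, which abundant genes dominate, was 682.1 to 862.7 in sensitive and 841.4 to 1260 in resistant tumours. With each marker weighted alike, the mean centred log2 CPM was -0.07 to 0.09 in sensitive and -0.03 to 0.02 in resistant tumours. Their part in the difference of Bax, or of Bad, was not tested.

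Bak1 (ENSMUSG00000057789, chromosome 17, 27019810 to 27029009, minus strand), the effector that sits in that membrane permanently, stood at 102.2, 78.5 and 102.4 CPM in sensitive and at 75.8, 82.8 and 69.5 CPM in resistant tumours. Here sensitive tumour 2 was the one that overlapped the resistant group. The log2 fold change was -0.31 ± 0.15 (edgeR unadjusted p = 0.0824, adjusted p = 0.522), and -0.43 ± 0.12 without that tumour (unadjusted p = 0.0125, adjusted p = 0.759). Exons of Ggnbp1 on the opposite strand cover 18.2% of the exonic bases of Bak1. Ggnbp1 itself varied widely, from 1.55 to 25.7 CPM, and in both groups. No source used here states strandedness, so reads of such shared bases could belong to either gene.

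**Figure D3:**
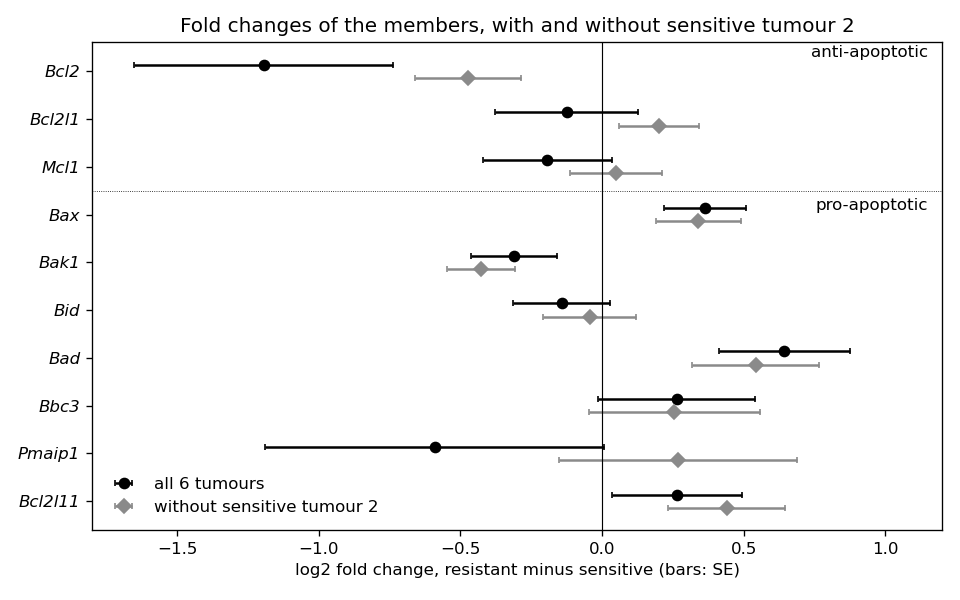
Log2 fold change of each member, resistant minus sensitive (horizontal axis, bars SE), with all 6 tumours (black circles) and without sensitive tumour 2 (grey diamonds). Bcl2 moves from -1.19 to -0.47, Bcl2l1, Mcl1 and Pmaip1 cross 0, and Bax and Bad stay at 0.34 or more.

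Of the 5 BH3-only members, Bad was the one with groups that did not overlap. Bad (ENSMUSG00000024959, chromosome 19, 6941861 to 6951899, plus strand), a sensor that survival kinases phosphorylate and that binds BCL2 and BCL-XL when unphosphorylated, stood at 7.996, 6.62 and 8.63 CPM in sensitive and at 12.7, 11.6 and 12.1 CPM in resistant tumours. The gap between the groups exceeded the range within either. Means were 7.75 ± 1.02 and 12.1 ± 0.54 CPM, a log2 fold change of 0.64 ± 0.23 or 1.56-fold (edgeR unadjusted p = 0.0285, adjusted p = 0.510). It was 0.54 ± 0.22 without sensitive tumour 2 (unadjusted p = 0.0512). Gpr137, on the opposite strand, shares 20.5% of the exonic bases of Bad. Its own groups overlapped, at 11.28 to 12.95 CPM in sensitive and 10.8 to 14.6 CPM in resistant tumours.

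Bcl2l11 (ENSMUSG00000027381, chromosome 2, 128126038 to 128162547, plus strand) encodes BIM, which binds all the guardians and is restrained by growth factor signalling. It stood at 16.3, 27.7 and 23.6 CPM in sensitive and at 26.4, 27.6 and 27.3 CPM in resistant tumours. The resistant tumours were nearly alike, and sensitive tumour 2 was at their level while the other sensitive tumours were lower. The log2 fold change was 0.26 ± 0.23 (edgeR adjusted p = 0.668), and 0.44 ± 0.21 without sensitive tumour 2 (adjusted p = 0.774).

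Bbc3 and Pmaip1, the genes of PUMA and NOXA, are known as targets of p53. Bbc3 (ENSMUSG00000002083, chromosome 7, 16308393 to 16318205, plus strand) stood at 4.96, 6.03 and 7.31 CPM in sensitive and at 7.97, 6.93 and 7.07 CPM in resistant tumours. Its log2 fold change was 0.26 ± 0.28 (edgeR adjusted p = 0.723), and 0.25 without sensitive tumour 2. Pmaip1 (ENSMUSG00000024521, chromosome 18, 66458533 to 66465565, plus strand), whose product binds MCL1, stood at 6.32, 18.9 and 4.63 CPM in sensitive and at 4.16, 9.25 and 6.36 CPM in resistant tumours. Its log2 fold change of -0.59 ± 0.60 (adjusted p = 0.710) became 0.27 ± 0.42 without sensitive tumour 2. Both genes overlapped between the groups, and Pmaip1 shared with Bcl2 its peak in that tumour. Bid (ENSMUSG00000004446, chromosome 6, 120891930 to 120916853, minus strand), which caspase 8 cleaves to link death receptors to mitochondria, stood at 35.5, 44.1 and 37.3 CPM and at 34.7, 31.1 and 40.2 CPM. The groups overlapped, with a log2 fold change of -0.14 ± 0.17 (edgeR adjusted p = 0.757), and -0.04 without sensitive tumour 2. Its exons share 17.7% of their bases with Bcl2l13 on the opposite strand. Bcl2l13 stood at 81.7 to 116.3 CPM, above Bid in every tumour.

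Levels of different genes were compared per length, on the deposited FPKM values. On that scale the order in all 6 tumours was Mcl1, then Bax, then Bak1, then Bid: Mcl1 ranged from 82.1 to 133.2 FPKM, Bax from 37.3 to 61.7, Bak1 from 16.6 to 23.5 and Bid from 5.73 to 7.91. The ranges of these first 4 did not overlap. Below them Bcl2l1 had a mean of 4.18 ± 1.02 FPKM (SD, n = 6), Pmaip1 3.10 ± 2.02, Bad 2.79 ± 0.79, Bcl2 2.48 ± 1.80, Bbc3 2.33 ± 0.45 and Bcl2l11 1.61 ± 0.33. Each of these neighbours overlapped with the next, so no order is given among them. Mcl1 made up 44.4% to 59.5% of the summed FPKM of the 10 members in a tumour. The order also depends on the gene length used. For the effectors, the deposited values imply 869 bases for Bax and 4396 for Bak1, whereas GENCODE M21 gives 1576 and 2407 exonic bases. Per kilobase of GENCODE exons, Bak1 (35.4 ± 5.78 CPM per kilobase) stood above Bax (26.9 ± 4.22), and in 5 of 6 tumours. For Bcl2l1 the lengths were 11905 and 4586 bases, and per kilobase of GENCODE exons it no longer lay below Bid (10.9 ± 2.64 against 10.5 ± 1.28 CPM per kilobase, higher in 3 of 6 tumours). The comparison between groups is not touched by gene length.

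Ratios of pairs of members inside a tumour do not depend on how libraries are scaled. The Bax to Bcl2 ratio of FPKM values was 19.4, 6.62 and 21.5 in sensitive and 31.96, 42.2 and 34.6 in resistant tumours. All resistant tumours lay above all sensitive ones, a mean difference of 1.36 on the log2 scale and of 0.82 without sensitive tumour 2. That separation follows from those of Bax and of Bcl2 given above, and is not a further result. The Bcl2l11 to Bcl2 ratio was 0.503, 0.287 and 0.710 in sensitive and 1.11, 1.32 and 1.04 in resistant tumours, again without overlap (mean log2 difference 1.30, and 0.95 without sensitive tumour 2). The Bcl2 to Bcl2l1 ratio was 0.605, 1.02 and 0.610 in sensitive and 0.356, 0.376 and 0.410 in resistant tumours, lower in all 3 (mean log2 difference -0.92, and -0.68 without sensitive tumour 2). All 3 of these ratios contain Bcl2, whose own groups did not overlap. The ratios are therefore not independent of that difference or of each other. The share of ratios without overlap over all gene pairs was not computed.

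**Figure D4:**
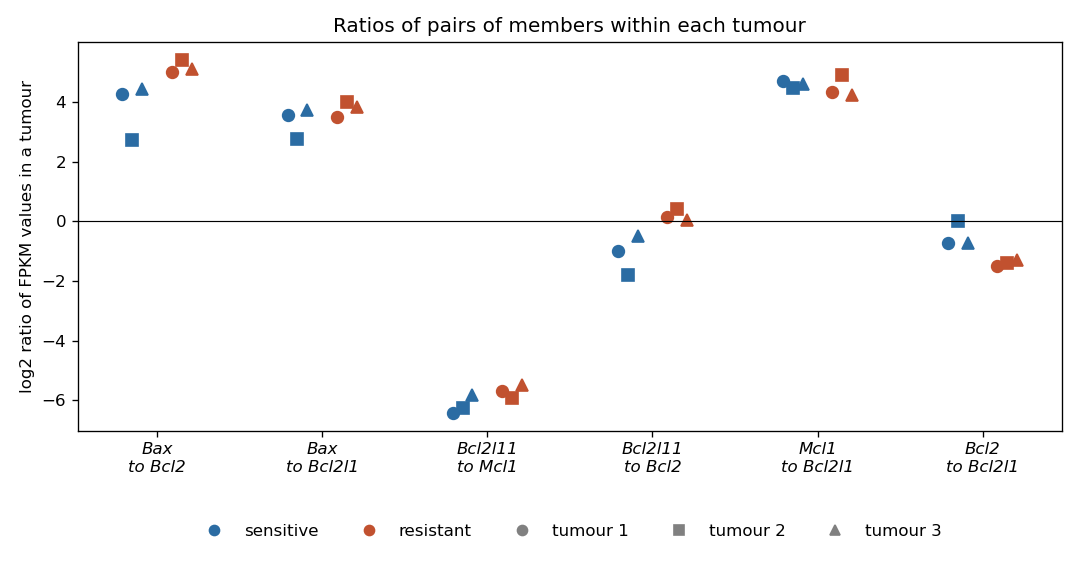
Log2 ratio of FPKM values (vertical axis) for 6 pairs of members (along the horizontal axis) in each sensitive (blue) and resistant (red) tumour, with a symbol per tumour number. The groups are apart for the 3 ratios that contain Bcl2 and overlap for Bax to Bcl2l1, Bcl2l11 to Mcl1 and Mcl1 to Bcl2l1. For Bax to Bcl2 this follows from the groups being apart for each gene alone. All 3 share Bcl2, whose groups are apart alone, so these ratios are not independent of each other.

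The ratios without Bcl2 overlapped between groups. Bax to Bcl2l1 differed by a mean of 0.44 on the log2 scale, and by 0.14 without sensitive tumour 2. Bcl2l11 to Mcl1 differed by 0.47, with 1 sensitive tumour inside the resistant range, and by 0.43 without sensitive tumour 2. Mcl1 to Bcl2l1 differed by -0.10. The ratios were chosen with earlier results of these tumours known, and they carry no test.

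Patterns over the 6 tumours closest to each guardian were looked up by the root mean square difference of centred log2 CPM, among 9866 protein-coding genes. For Bcl2 they were Rogdi (0.12) and Pim2 (0.17), where the spread of Bcl2 itself was 0.72. Pim2, which encodes a serine/threonine kinase, stood at 8.12, 23.6 and 9.20 CPM in sensitive and at 8.26, 5.43 and 7.49 CPM in resistant tumours, and it shared the high value in sensitive tumour 2. For Bcl2l1 they were Foxred1 (0.06) and Foxn3 (0.07), and for Mcl1 they were Mapk8ip3 and Acadvl (both 0.05), beside spreads of 0.29 and 0.27. With 6 tumours such a likeness is a description only.

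Further relatives of the family lay on both sides. Of 5 other anti-apoptotic relatives, 4 were tested, 1 higher and 3 lower in resistant tumours, with and without sensitive tumour 2. Bcl2l2, the gene of the guardian BCL-W, stood at 29.6, 27.1 and 39.1 CPM in sensitive and at 60.7, 54.6 and 44.7 CPM in resistant tumours, without overlap. Its log2 fold change was 0.74 ± 0.20 (edgeR unadjusted p = 0.0089, adjusted p = 0.510) and 0.63 without sensitive tumour 2 (unadjusted p = 0.0201). The gene model Gm20521 shares 13.3% of its exonic bases on the same strand, and was read at 0 in sensitive tumour 1 and at 14.6 to 23.1 CPM in the other 5, so reads could be counted for either. The BCL2A1 copies, guardians of blood cells, lay the other way: Bcl2a1d at -1.21 ± 0.40, Bcl2a1a at -0.98 ± 0.46 and Bcl2a1b at -0.63 ± 0.37 on the log2 fold scale. These values were, without sensitive tumour 2, -0.86, -0.55 and -0.23. The copies are nearly identical, so the split of reads between them is uncertain. Bcl2l10 had at most 0.19 CPM.

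Another 10 relatives were listed here as pro-apoptotic or BH3-only, a grouping these data do not test. Of these, 8 were tested, 3 higher and 5 lower, and without sensitive tumour 2 they were 6 higher and 2 lower. Bok, an effector-like protein, stood at 9.11, 12.8 and 15.5 CPM in sensitive and at 21.1, 16.1 and 23.7 CPM in resistant tumours, without overlap (log2 fold change 0.70 ± 0.27, edgeR unadjusted p = 0.0395, adjusted p = 0.510). Bok stood at 0.72 ± 0.31 without sensitive tumour 2. Bmf, a BH3-only gene, had a log2 fold change of -0.69 ± 0.65, and of 0.0012 ± 0.60 without that tumour. Bcl2l14 had one of -1.19 ± 0.92, and of -0.64 ± 1.01 without it. Bcl2l15 stood at -0.35 ± 0.87, and at -0.79 ± 0.84 without it. All 3 had groups that overlapped. The mitophagy receptors Bnip3 (0.10 ± 0.50) and Bnip3l (-0.06 ± 0.50), Bcl2l13 (0.20 ± 0.14) and Bcl2l12 (-0.05 ± 0.22) had values near 0, and without it they stood at 0.07, 0.13, 0.10 and 0.01. Bik did not exceed 1.25 CPM, and Hrk was not analysed here.

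Taking these relatives with 6 further lists of the pathway, 59 of 63 cell death genes were tested and 0 passed by edgeR. DESeq2 called 1, Tnf. At an unadjusted p under 0.05 there were 10 by edgeR, 4 higher and 6 lower, where 4.02% of all tested genes were higher and 5.73% lower at that level. Leaving out 1 tumour moved this count to 5, 6 and 12 without sensitive tumours 1, 2 and 3. It moved to 2, 8 and 5 without resistant tumours 1, 2 and 3. Without the sensitive tumours in turn the counts were 8.33%, 10.2% and 20.3% of the listed genes tested, against 7.66%, 6.37% and 17.8% of all tested genes. Without the resistant tumours in turn they were 3.33%, 13.3% and 8.33%, against 4.22%, 6.2% and 5.59%. The 6 without sensitive tumour 2 were 2 higher and 4 lower. The median log2 fold change of the 59 genes was -0.05, and 0.0062 without sensitive tumour 2. After the opened membrane the pathway continues with cytochrome c, the scaffold APAF1 and the caspases, and none of the 7 genes of that list reached an unadjusted p under 0.05. Cycs, the gene of cytochrome c, had a log2 fold change of 0.30 ± 0.25, and Apaf1 one of -0.24 ± 0.27, and without sensitive tumour 2 they stood at 0.23 and -0.36. That list had 2 genes higher and 5 lower, and 4 higher and 3 lower without that tumour. Among 7 caspase inhibitors and their antagonists none reached it either, with 3 higher and 4 lower, and 5 higher and 2 lower without sensitive tumour 2. Birc3, an inhibitor of apoptosis protein, stood at -1.49 ± 0.76 and at -0.30 without sensitive tumour 2, Birc5, the mitotic protein survivin, at 0.33 ± 0.20 and 0.15, and Birc6 at -0.24 ± 0.18 and -0.06, with and without that tumour.

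The death receptor arm, which meets the family at Bid, had 10 of 11 genes on the lower side, with a median log2 fold change of -0.40. Over all tested genes 47.3% had a positive log2 fold change. At an edgeR unadjusted p under 0.05 the arm had 4 lower and 1 higher. Of all tested genes 5.73% were lower and 4.02% higher at that level. Without sensitive tumour 2 the arm again had 10 of 11 on the lower side, with a median of -0.33. It then had 2 lower (Tnf and Cflar) and 0 higher at that level, where 462 of 14664 tested genes were lower and 472 higher. Tnf, the cytokine that engages TNF receptors, stood at 9.24, 12.2 and 3.94 CPM in sensitive and at 2.08, 1.43 and 2.32 CPM in resistant tumours. The groups did not overlap, and the log2 fold change was -2.12 ± 0.49 (edgeR unadjusted p = 0.0040, adjusted p = 0.510; DESeq2 adjusted p = 0.0238), or -1.76 without sensitive tumour 2. Casp8, the initiator caspase that cleaves BID, stood at 81.3, 108.9 and 67.5 CPM in sensitive and at 49.3, 62.6 and 60.9 CPM in resistant tumours (log2 fold change -0.58 ± 0.21, edgeR adjusted p = 0.510, and -0.37 ± 0.16 without sensitive tumour 2). Cflar, which encodes the caspase 8 inhibitor FLIP, had one of -0.40 ± 0.14, and of -0.33 without that tumour. Immune cells also express Tnf, and the T cell, endothelial and fat cell markers had the values given beside Bcl2. Macrophage markers overlapped, at 761.5 to 1289 summed CPM in sensitive and 610.1 to 1816 CPM in resistant tumours, with all 9 detected in every tumour. The part of these cell types was not tested.

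**Figure D5:**
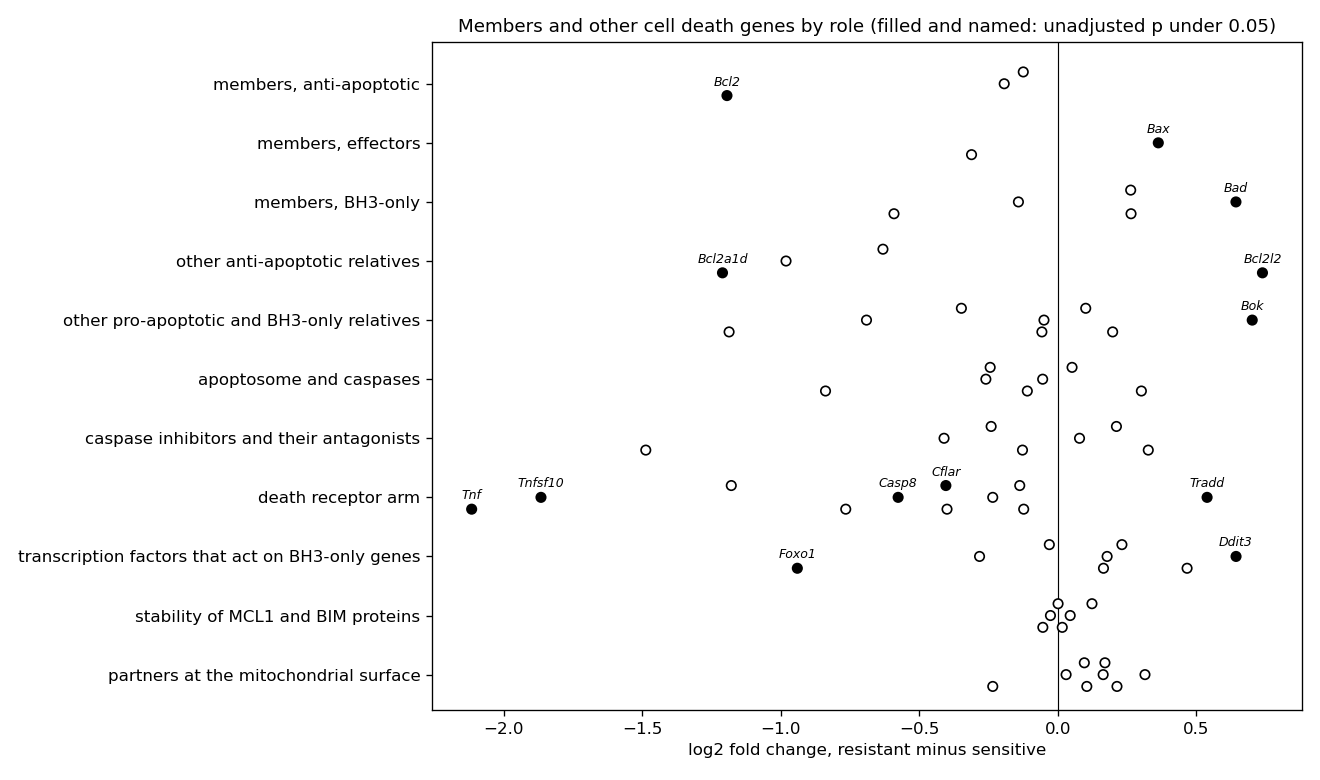
Log2 fold change, resistant minus sensitive (horizontal axis), of the 10 members and 59 other cell death genes by role, 1 point per gene. Filled and named points have an unadjusted p under 0.05 by edgeR, and none has an adjusted p under 0.05.

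Among the transcription factors that act on BH3-only genes, 5 of 8 tested were higher, and 4 of 8 without sensitive tumour 2. Ddit3, the gene of the stress factor CHOP, stood at 16.5, 21.1 and 20.05 CPM in sensitive and at 36.6, 32.1 and 21.4 CPM in resistant tumours (log2 fold change 0.64 ± 0.25, edgeR unadjusted p = 0.0368, adjusted p = 0.510). It stood at 0.72 without sensitive tumour 2. Its groups were apart by a narrow margin, with resistant tumour 3 just above the sensitive ones. Foxo1, a forkhead factor held in the cytosol by AKT, stood at 37.8, 93.7 and 38.2 CPM in sensitive and at 27.1, 32.2 and 29.2 CPM in resistant tumours, a profile with the same peak in sensitive tumour 2 as Bcl2 (log2 fold change -0.94 ± 0.38, and -0.37 without that tumour). Atf4 had one of 0.47 ± 0.23, and of 0.29 without it. Of 8 partners at the mitochondrial surface 7 were higher, by little: Bcap31 stood at 0.31 ± 0.18 and Vdac1, a channel of the outer membrane, at 0.17 ± 0.12, while the fission protein gene Dnm1l stood at -0.23 ± 0.15. Without sensitive tumour 2 the values were 0.17, 0.08 and -0.34, again with 7 of 8 higher.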

How the data were processed

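Per the labels' protocols, TRIzol was used to extract the RNA of 6 tumours, and libraries were made with a VAHTS Universal V6 kit. HISAT2, StringTie and edgeR appear in the submitters' processing notes, with neither role nor version. No source used here names the build, annotation or strandedness. Per gene, the authors deposited whole-number read counts with no normalization, and FPKM values equal to counts over gene length and total count, to within a relative 1.73e-06 over 5442 genes. No pair of libraries agreed within sampling noise (chi-square per gene 38.5 or more). Tumours of a group are biological replicates per the series' design text.

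The whole count table was fitted in R 4.3.3 with edgeR 4.0.16 (filterByExpr, TMM, quasi-likelihood F-test without a block, Benjamini-Hochberg adjustment, threshold 0.05). Log2 CPM used a prior count of 2. The SE of a log2 fold change was derived from that test, as its absolute value over the square root of the F statistic. Code was tested on simulated data. The members and lists were chosen with earlier results of these data known. All members and relatives are named, with the 3 genes of smallest p from each other list and the 2 nearest patterns per guardian. Values of some genes that this rule or the marker lists take are not reported here. Ggnbp1, Gpr137, Gm20521 and Gm45808 were named because they overlap a member or relative. Positions come from GENCODE M21, where 99.4% of identifiers matched. Alternatives were other scalings and filters, DESeq2 1.42.0, limma 3.58.1, edgeR's exact test, a robust prior, a replicate block, FPKM with 2 pseudocounts and each tumour left out.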

Additional observations from a re-analysis of the deposited data

How the results depend on the processing

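No member passed an adjusted p of 0.05 under any of the 18 alternatives. Over all tested genes DESeq2 called 117 and edgeR's exact test 39, where the quasi-likelihood test called 0. Of the cell death lists DESeq2 called 1 gene, Tnf. Of 180 fold changes of members recomputed, 175 kept their direction. The 5 that turned were Bcl2l1, Mcl1 and Pmaip1 without sensitive tumour 2 (log2 fold changes 0.20, 0.048 and 0.27), and Bcl2l1 on log2(FPKM + 1) and log2(FPKM + 0.1), at 0.0010 and 0.0094. With single tumours left out, log2 fold changes ran from -0.25 to 0.20 for Bcl2l1, from -0.32 to 0.05 for Mcl1 and from -0.93 to 0.27 for Pmaip1. The cause was not tested.

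Same-numbered tumours did not all deviate together (correlations of 0.05, 0.31 and -0.16 over tested genes). For differently numbered tumours the correlations ran from -0.48 to 0.50. Deviations within groups of so few tumours are not independent, so these correlations cannot decide whether the numbers pair the tumours. With the replicate number as a block the log2 fold changes were -0.98 for Bcl2, 0.36 for Bax and 0.65 for Bad, 0 members had an unadjusted p under 0.05, and 1120 genes did against 1404 without the block. By unadjusted p, edgeR's exact test kept Bcl2 alone, where 9.16% of all tested genes lay under 0.05. The limma-voom fit kept Bax and Bad, against 7.51% of all tested genes. Taking the level of Bax over Bak1 per kilobase of GENCODE exons, an alternative chosen after seeing the data, turned its log2 ratio from 1.34 to -0.40. Depth was lowest for Pmaip1 (70 counts in its lowest tumour), Bbc3 (80) and Bad (111).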
